A study of Mus musculus with 3 samples.

Results

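The genes described here are Tnf, Tnfaip3, Nfkbia, Nfkbie, Nfkbiz, Tnip1, Bcl3, Birc3, Relb and Nfkb2, which encode the cytokine TNF and the feedback inhibitors and products of the NF-kB pathway. They were chosen by name, with earlier results of these data known, so the counts below are descriptions. Every probe whose platform annotation names exactly 1 gene, that gene being in this set, was taken, which gave 12 of 41174 probes and 10 of 19532 named genes. Nfkbiz and Birc3 had 2 probes each and the other 8 genes had 1. All 12 probes had a value in all 3 contrasts.

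Mouse hearts (C57BL/6) were profiled on 2-colour oligonucleotide arrays, and the series describes 6 groups of 8 animals. An amount of 30 mg of heart is given for each contrast. The groups were hearts of mice without sepsis that received esmolol, a rapidly cleared beta-1 adrenergic receptor antagonist, at 20 mg/kg/h through a jugular venous catheter, set against untreated hearts without sepsis. Hearts of mice given intraperitoneal lipopolysaccharide (LPS, the outer membrane component of Gram-negative bacteria that Toll-like receptor 4 senses) plus the same infusion were set against hearts given LPS alone. Hearts of mice whose cecum was ligated and perforated (CLP, which causes sepsis from the animal's own gut bacteria) plus the infusion were set against hearts with CLP alone. The question was how the drug alters gene expression in the heart in each setting. Age, sex, the LPS dose and the sampling time are given nowhere in the sources used here, and the labels do not say whether animals listed as untreated carried a catheter. No contrast sets septic against non-septic hearts, so whether sepsis itself moved these genes was not measured.

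Each contrast is a single deposited log ratio per probe that merges 4 replicates with dye swaps, so no replicate spread, p-value or test is available for any gene, and "higher" and "lower" describe the size and sign of that merged value. The values were read as log2 ratios, an assumption, and were arranged with esmolol hearts on top, so values above 0 are higher with the drug. The CLP sample is titled the other way round, with the untreated hearts on top, so its sign was turned. The series' design text speaks of treated against untreated hearts without exception, so the direction in CLP hearts is not settled: with the sign as deposited, every CLP value below changes sign. The one error the table allows is the SD between probes of the same gene, pooled over all genes with several probes. It was 0.11 for non-septic, 0.24 for LPS and 0.10 for CLP hearts on the log2 scale (7472, 7394 and 7105 genes), and is called the probe spread here. It covers neither animals nor hybridizations. In such bulk tissue, fewer cells of a type and less RNA per cell cannot be told apart.

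NF-kB transcription factors are held in the cytoplasm by inhibitor of kappa B (IkB) proteins. Signals from TNF or Toll-like receptors activate the IkB kinase complex, the inhibitors are degraded, and Rel dimers enter the nucleus. Many of the genes they switch on encode brakes of the same pathway, among them the IkB proteins and the ubiquitin-editing enzyme A20, so the transcripts of these brakes are widely used as a readout of the pathway. In the heart, TNF and NF-kB activity are known as part of the response to bacterial products.

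In LPS hearts, 9 of the 10 genes were lower with esmolol, and in CLP hearts all 10 were higher in the titled direction. Their median log2 ratio was -0.33 in LPS hearts, where the median of all 17733 genes measured was 0.0001, and 0.29 in CLP hearts, where that of all 17339 genes was -0.005. In hearts without sepsis the median was -0.07 against 0.001 over all 17814 genes, with 8 of the 10 genes below 0. Of all genes measured, 49.5% were below 0 in non-septic hearts, 49.97% were below 0 in LPS hearts and 47.9% were above 0 in CLP hearts. Most of these shifts were small. At 1.5-fold (0.58 on the log2 scale), Tnfaip3 was the 1 gene of the set past the threshold, lower in LPS hearts and higher in CLP hearts.

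Few of the 10 genes passed 1.5-fold in any contrast. In hearts without sepsis 0 of the 10 genes were higher and 0 lower by 1.5-fold, where 0.219% of all genes measured were higher and 0.241% lower. In LPS hearts 0 were higher and 1 was lower, where 2.06% of all genes were higher and 2.26% lower. In CLP hearts 1 was higher and 0 were lower, where 0.819% of all genes were higher and 0.133% lower. The LPS count rests on the rule for genes with several probes: with the probe farthest from 0 in place of the median, Nfkbiz and Birc3 also passed and 3 of the 10 were lower. The share of all genes was not counted under that rule, so the 2.26% does not apply to it. Ranks placed more of the set toward one end. In CLP hearts 6 of the 10 genes stood at or above the 95th percentile of all genes, in LPS hearts 3 stood at or below the 5th percentile and 0 at or above the 95th, and in non-septic hearts 3 stood at or below the 5th and 1 at or above the 95th.

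**Figure D1:**
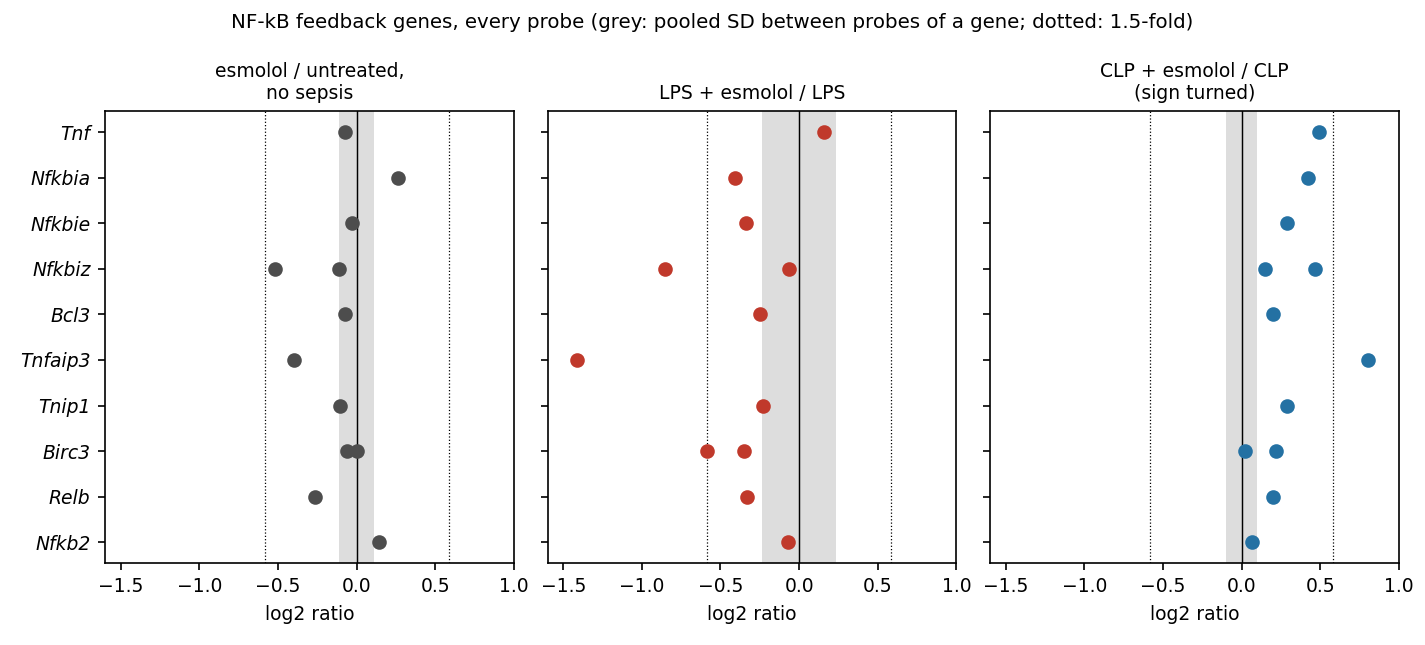
Log2 ratio of esmolol over untreated hearts (x axis) for each of the 12 probes of the 10 NF-kB feedback genes (rows), with panels for non-septic, LPS and CLP hearts from left to right. Each point is 1 probe, the grey band is the probe spread on either side of 0 and dotted lines mark 1.5-fold; Tnfaip3 is the farthest point in the LPS panel (-1.41) and in the CLP panel (0.80).

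**Figure D2:**
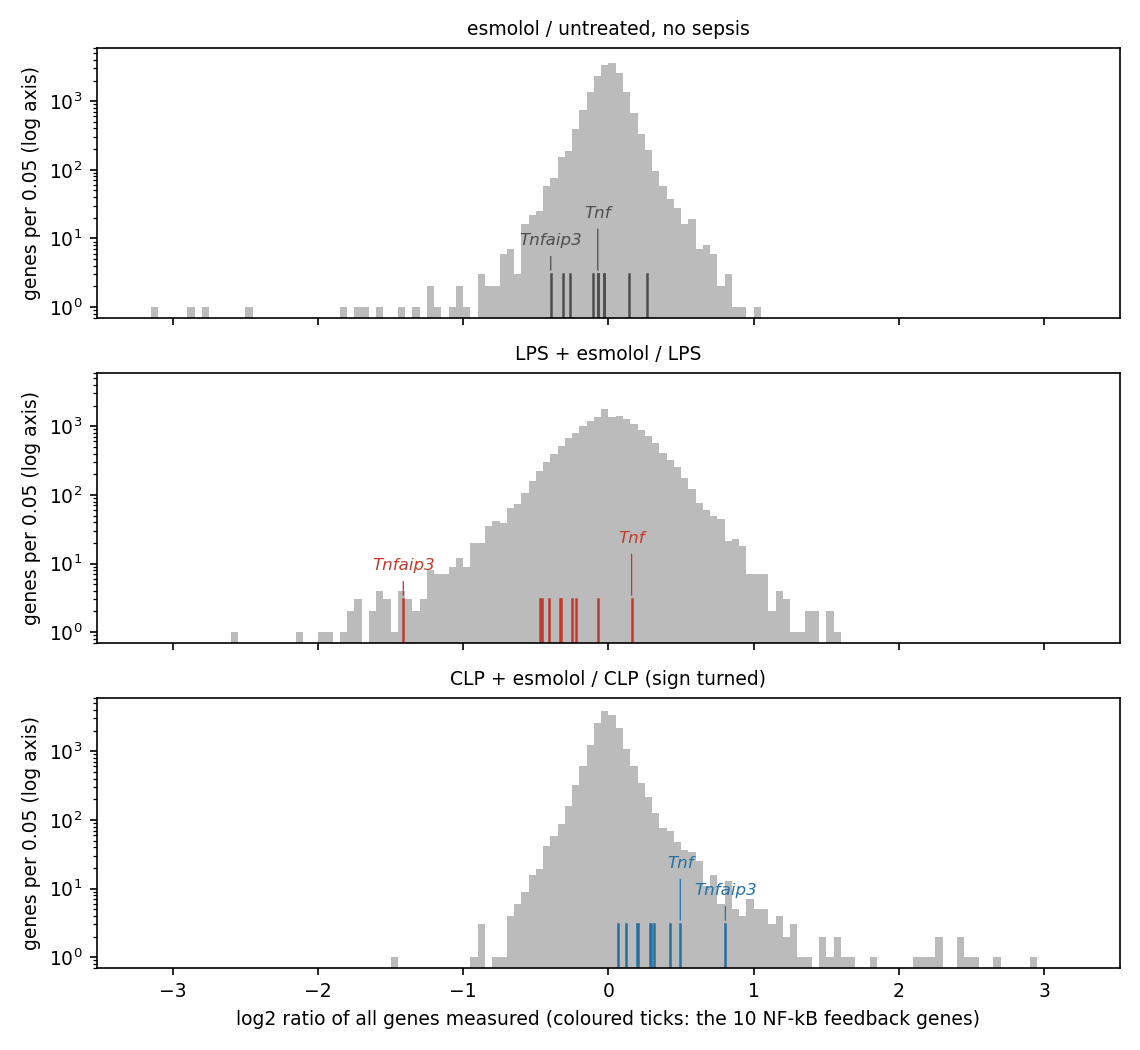
Number of genes (y axis, log scale) by log2 ratio (x axis) for all genes measured in non-septic, LPS and CLP hearts (top to bottom), with the 10 NF-kB feedback genes as coloured ticks. The ticks lie mainly left of 0 in LPS hearts and wholly right of 0 in CLP hearts, and the grey distribution is widest in LPS hearts.

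The promoters of the genes are shown as a description, and whether NF-kB sites bear on the ratios was not tested. RefSeq start-site windows of mouse assembly GRCm38.p6, from 250 bases before to 50 bases after an annotated start, were in hand for 8 of the 10 genes, with 11 windows in all. Nfkbiz and Relb had none. The windows were searched on both strands for the NF-kB consensus, a 10-base motif. The gene strand from base -150 to base 50 is printed for 6 genes, 5 with a match, from Tnfaip3, the gene with the largest ratios, to Nfkb2, the gene nearest to 0 in both septic contrasts, and Tnf, whose window had none. Capitals mark the matched bases.
Tnfaip3, chr10:19015361-19015560, minus strand: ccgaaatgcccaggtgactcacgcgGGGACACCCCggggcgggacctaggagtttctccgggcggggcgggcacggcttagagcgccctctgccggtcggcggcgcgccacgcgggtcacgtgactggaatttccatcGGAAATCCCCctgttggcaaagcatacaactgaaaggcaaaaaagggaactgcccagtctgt
Nfkbia, chr12:55492598-55492797, minus strand: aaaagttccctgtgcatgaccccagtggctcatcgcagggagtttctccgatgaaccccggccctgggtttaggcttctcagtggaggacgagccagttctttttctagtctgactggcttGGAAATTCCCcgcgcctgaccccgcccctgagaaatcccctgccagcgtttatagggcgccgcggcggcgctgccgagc
Nfkbie, chr17:45555550-45555749, plus strand: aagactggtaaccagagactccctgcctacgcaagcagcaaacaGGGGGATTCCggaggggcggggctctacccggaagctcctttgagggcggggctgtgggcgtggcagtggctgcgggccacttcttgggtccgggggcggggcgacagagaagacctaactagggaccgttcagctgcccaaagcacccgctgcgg
Tnip1, chr11:54962891-54963090, minus strand: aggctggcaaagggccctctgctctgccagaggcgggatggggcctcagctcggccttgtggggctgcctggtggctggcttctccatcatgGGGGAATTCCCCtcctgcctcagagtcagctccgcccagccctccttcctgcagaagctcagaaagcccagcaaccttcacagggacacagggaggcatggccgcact
Nfkb2, chr19:46304587-46304786, plus strand: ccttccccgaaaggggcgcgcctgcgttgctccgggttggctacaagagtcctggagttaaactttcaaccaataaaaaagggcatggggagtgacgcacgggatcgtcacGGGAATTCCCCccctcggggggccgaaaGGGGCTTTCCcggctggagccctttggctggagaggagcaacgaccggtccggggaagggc
Tnf, chr17:35201958-35202157, minus strand: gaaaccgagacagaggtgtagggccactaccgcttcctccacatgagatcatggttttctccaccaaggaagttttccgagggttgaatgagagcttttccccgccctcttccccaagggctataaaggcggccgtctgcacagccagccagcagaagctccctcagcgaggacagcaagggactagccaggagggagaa
Of the 8 genes, 6 had a match in at least 1 window, and 8 of the 11 windows had one. Over the whole table, 8.46% of 32851 windows and 9.55% of 27025 genes had a match. The set was chosen for its link to NF-kB, so this is a description. In the first Tnfaip3 window, matches began at base -125, where the same bases matched on both strands, and at base -12 on the opposite strand. The second Tnfaip3 window had none. The Nfkbia match began at base -29 on the opposite strand, and the Nfkbie match at base -106 on the gene strand. In Tnip1, 4 overlapping matches on both strands formed a single stretch that began at base -58. In the first Nfkb2 window, overlapping matches began at base -39 and a separate one at base -11. Bcl3 had matches on both strands over bases 3 to 12, and the third Nfkb2 window overlaps the second and shares a match with it. The windows of Tnf and Birc3 had no match, which says only that these letters are not in them. The 6 genes with a match had log2 ratios between -0.40 and 0.26 in non-septic, between -1.41 and -0.07 in LPS and between 0.07 and 0.80 in CLP hearts. Of the 2 genes without one, Tnf was at -0.07, 0.16 and 0.49 and Birc3 at -0.03, -0.47 and 0.12 in the same order. Tnf in LPS hearts was the one value of these 2 genes outside the range of the 6, and it lay within the probe spread.

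**Figure D3:**
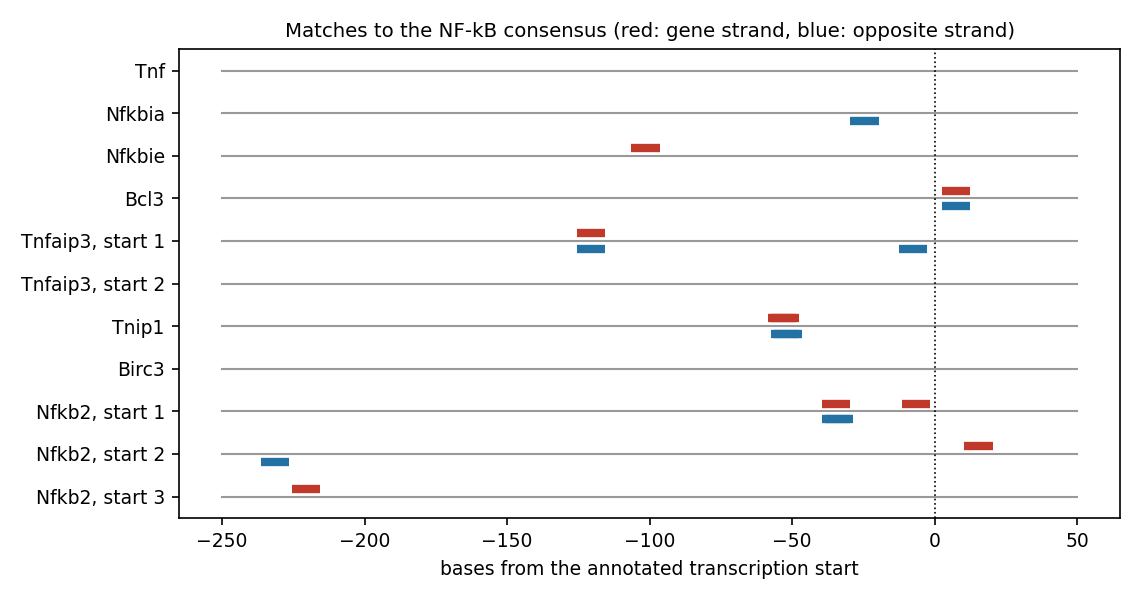
Positions of matches to the NF-kB consensus, in bases from the annotated transcription start (x axis), in the 11 start-site windows of 8 NF-kB feedback genes (rows). Red bars are matches on the gene strand and blue bars on the opposite strand; the windows of Tnf, Birc3 and the second Tnfaip3 start have none.

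Tnf, the inflammatory cytokine whose receptors switch the pathway on, was the one gene of the set that did not follow the others in LPS hearts. Its log2 ratio was 0.16 in LPS hearts, within the probe spread of 0.24 and at rank 4604 from the top of 17733 genes. In non-septic hearts it was -0.07, also within the spread. In CLP hearts it was 0.49, or 1.41-fold, which is 4.87 times the probe spread and rank 207 from the top of 17339 genes. Tnf was thus on the same side of 0 in LPS and CLP hearts in the titled direction, the only gene of the 10 to be so.

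Of the cytoplasmic inhibitors, Nfkbia encodes IkB alpha, the first brake that NF-kB induces after a stimulus, and Nfkbie encodes IkB epsilon, a slower one. Nfkbia had log2 ratios of 0.26 in non-septic, -0.41 in LPS and 0.42 in CLP hearts. It was the highest of the 10 genes in non-septic hearts, at rank 408 from the top of all 17814. Its ratio in LPS hearts lay below that in non-septic hearts by 0.67, or 2.57 times the combined probe spread. Nfkbie had log2 ratios of -0.03, -0.34 and 0.29 in the same order. Its values in LPS and CLP hearts were 1.42 and 2.83 times the probe spread, and the value in non-septic hearts was within it.

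The nuclear IkB family members Nfkbiz and Bcl3 bind NF-kB subunits on DNA and modulate which targets are transcribed. The Nfkbiz probes disagreed in size. Probe A_51_P387591 had log2 ratios of -0.52 in non-septic, -0.85 in LPS and 0.47 in CLP hearts, while probe A_52_P384916 had -0.11, -0.07 and 0.15. The sign was the same at both probes in all 3 contrasts, but in LPS hearts the SD between them was 0.56, above the pooled 0.24, and the annotation pairs them with different cDNA sequences. Their medians were -0.31, -0.46 and 0.31. Bcl3 had smaller ratios, -0.08 in non-septic, -0.25 in LPS and 0.20 in CLP hearts, or 0.68, 1.05 and 2.00 times the probe spread.

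Tnfaip3 encodes A20, which removes and adds ubiquitin chains on signalling proteins upstream of the IkB kinases, and Tnip1 encodes an A20-binding adaptor. Tnfaip3, measured by 1 probe (A_52_P412417), had log2 ratios of -0.40 in non-septic, -1.41 in LPS and 0.80 in CLP hearts. In LPS hearts this was 2.66-fold lower with esmolol, rank 23 from the bottom of 17733 genes. In CLP hearts it was 1.75-fold higher, rank 69 from the top of 17339 genes, and in non-septic hearts 1.32-fold lower, rank 162 from the bottom of 17814. Tnfaip3 was the outermost gene of the set in all 3 contrasts on the side to which most members lay. It was separated from the next gene by 0.94 in LPS hearts (3.98 times the probe spread) and by 0.31 in CLP hearts (3.06 times), but by less than the spread in non-septic hearts (0.08). Tnip1 had far smaller ratios, -0.11 in non-septic, -0.23 in LPS and 0.29 in CLP hearts, of which only the last exceeded the probe spread.

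Birc3 encodes cIAP2, a ubiquitin ligase that protects cells from TNF-induced death and restrains the non-canonical pathway. Its probe A_52_P434055 had log2 ratios of -0.06 in non-septic, -0.59 in LPS and 0.02 in CLP hearts, and probe A_51_P449171 had -0.001, -0.35 and 0.22. Both probes were thus below 0 by more than the probe spread of 0.24 in LPS hearts, where their median was -0.47, or 1.98 times that spread. In non-septic hearts both were near 0. In CLP hearts one probe was near 0 and the other above it.

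Relb and Nfkb2 encode the partner subunits of the non-canonical pathway, RelB and p100/p52, and p100 also acts as an inhibitor of RelB. Relb had log2 ratios of -0.27 in non-septic, -0.33 in LPS and 0.20 in CLP hearts. The non-septic value was 2.39 times the probe spread and rank 508 from the bottom of all genes. Nfkb2 had log2 ratios of 0.14, -0.07 and 0.07 in the same order. The LPS and CLP values of Nfkb2 were within the probe spread and among the smallest of the set in size, and together with Nfkbia it was one of the 2 genes above 0 in non-septic hearts.

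Few neighbours in the order of the genes differed by more than the probe spread. In LPS hearts it ran from Tnfaip3 through Birc3, Nfkbiz, Nfkbia, Nfkbie, Relb, Bcl3, Tnip1 and Nfkb2 to Tnf, and after Tnfaip3 no neighbours differed by more than the probe spread. In CLP hearts it ran upward from Nfkb2 through Birc3, Relb, Bcl3, Nfkbie, Tnip1, Nfkbiz, Nfkbia and Tnf to Tnfaip3. There, only the gap below Tnfaip3 and that between Nfkbiz and Nfkbia (0.11, 1.09 times the spread) were larger than the spread. The 2 Nfkbiz probes (0.15 and 0.47) lay on both sides of Nfkbia (0.42), so the order of these 2 genes depends on the probe. In non-septic hearts Tnfaip3, Nfkbiz and Relb were lowest, and a gap of 0.16, or 1.42 times the spread, set them apart from Tnip1. For Nfkbiz this holds for the median (-0.31), as 1 of its 2 probes was at -0.11, level with Tnip1 (-0.11). The other gaps above the spread there were those from Nfkbie to Nfkb2 (0.18) and from Nfkb2 to Nfkbia (0.12). All these gaps were set against the probe spread of 1 gene, which is smaller than the combined spread of 2 genes.

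Between the septic models, 9 of the 10 genes had ratios of opposite sign in LPS and CLP hearts in the titled direction. Of all 17089 genes measured in both, 52.1% did. With the CLP sign as deposited, the same 9 genes would be below 0 in both models and Tnf alone would differ in sign. No control hearts are shared between the LPS and the CLP contrast by their labels. The largest difference was that of Tnfaip3, -2.22 (LPS minus CLP, 8.60 times the combined probe spread), and the smallest that of Nfkb2, -0.14 (0.54 times). With the CLP sign as deposited, the difference of Tnfaip3 was -0.61 (2.36 times) and that of Tnf was the largest, 0.65 (2.53 times), while Nfkb2 still had the smallest, -0.008. For 9 of the 10 genes the LPS ratio was larger in size than the non-septic one, with Nfkb2 as the exception, and the LPS contrast was the one with the widest distribution over all genes (SD 0.28, against 0.14 in non-septic and 0.16 in CLP hearts). Set against the probe spread of its own contrast, a ratio exceeded it in 5 of 10 genes in non-septic, 7 of 10 in LPS and 9 of 10 in CLP hearts. Of all genes measured, 28.5% exceeded it in non-septic, 34.2% in LPS and 30.4% in CLP hearts.

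**Figure D4:**
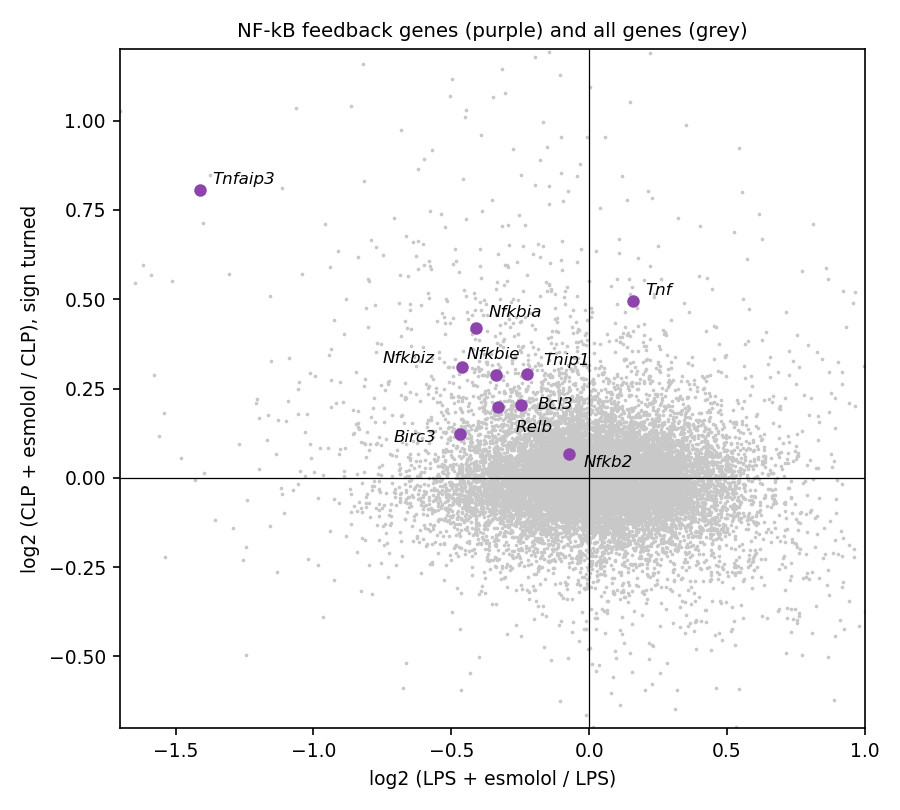
Log2 ratio in CLP hearts with the sign turned (y axis) against that in LPS hearts (x axis), for the 10 NF-kB feedback genes (purple) and all genes measured in both (grey). Of 17089 genes, 69 lie beyond the axes; 9 purple points are in the upper left quadrant and Tnf is in the upper right.

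The rest of the pathway was read from lists arranged by role, of which 76 genes were measured. These lists, too, were chosen with earlier results of these data known. Taken over all of them, 0 were higher and 11 lower by 1.5-fold in LPS hearts, 11 higher and 0 lower in CLP hearts, and 0 higher and 6 lower in non-septic hearts. Of all genes measured, 2.06% were higher and 2.26% lower in LPS hearts. The shares were 0.819% and 0.133% in CLP hearts, and 0.219% and 0.241% in non-septic hearts. The medians of the 76 genes were -0.17 in LPS, 0.10 in CLP and -0.03 in non-septic hearts. In LPS and CLP hearts the listed genes past 1.5-fold were targets and, in LPS hearts, also 3 further inhibitors. In non-septic hearts they were 5 targets and 1 receptor.

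Among 12 ligands and receptors, 0 passed 1.5-fold in LPS or CLP hearts, and all 12 were above 0 in CLP hearts (median 0.12). Tnfrsf1a, the main TNF receptor, was at -0.02 in non-septic, -0.02 in LPS and 0.32 in CLP hearts. Tnfrsf12a, the receptor of the cytokine TWEAK, was the 1 listed gene lower by 1.5-fold in non-septic hearts (-0.89), where 0.241% of all genes were. The highest in CLP hearts was Tnfrsf11a, the receptor RANK (0.46). Of 11 adaptors 0 passed in any contrast. Malt1, a paracaspase, was lowest in LPS hearts (-0.56) and Myd88, the Toll-like receptor adaptor, highest in CLP hearts (0.40). Of 10 kinases 0 passed either. Map3k8 was lowest in LPS hearts (-0.37), Ikbke was highest in CLP hearts (0.51), and Ikbkb, the catalytic IkB kinase, was near 0 in LPS hearts (-0.004). The measured Rel subunits were Rela, at 0.003 in non-septic, -0.29 in LPS and 0.14 in CLP hearts, and Rel, at -0.33, -0.49 and 0.28.

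Among 18 other inhibitors of the pathway, 3 were lower by 1.5-fold in LPS hearts (2.26% of all genes were) and 0 higher, with a median of -0.17. These were Irak3, an inhibitory kinase-like protein of Toll-like receptor signalling (-0.65), Usp18, which also restrains interferon signalling (-0.64), and Zc3h12a, an RNase that degrades cytokine mRNAs (-0.61). Irak3 and Zc3h12a were at 0.49 and 0.48 in CLP hearts, where 0 of the 18 passed and the list's median was -0.02. The deubiquitinase Cyld was at 0.14 in LPS and -0.06 in CLP hearts, both within the probe spread. By sign alone, 3 of the 18 were above 0 in LPS hearts and 10 below 0 in CLP hearts. Not all brakes of the pathway thus lay on the side of Tnfaip3.

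Among 23 other targets, 8 were lower by 1.5-fold and 0 higher in LPS hearts (median -0.44), where 2.26% of all genes were lower. In CLP hearts 11 of the 23 were higher and 0 lower (median 0.39), where 0.819% of all genes were higher. In LPS hearts the lower ones were Il6 (-1.55), Ptgs2 (-1.24), Cxcl2 (-1.06), Irf1 (-0.92), Sele (-0.88), Nos2 (-0.85), Icam1 (-0.82) and Gadd45b (-0.73). The 3 Irf1 probes disagreed, running from -1.78 to 0.34 and so lying on both sides of 0. The 2 Icam1 probes were at -1.07 and -0.56 and the 2 Gadd45b probes at -0.90 and -0.56. Thus 1 probe of each fell short of 1.5-fold. Tnfaip3 lay within the range of the 8 genes. In CLP hearts Sele, an endothelial selectin, was the highest (2.54), and Ccl2 just reached the threshold (0.58). In non-septic hearts, 5 of the 23 targets were lower, where 0.241% of all genes were. They were Saa3 (-3.12), Cxcl1 (-1.80), Lcn2 (-1.68), Cxcl2 (-1.06) and Tnfaip2 (-0.59), none of which is among the 10 feedback genes. Of the targets, Cxcl2 alone was past 1.5-fold in all 3 contrasts. Saa3 in LPS hearts lay on a single exact value shared by 526 probes, and Sod2 lay on such a value in LPS and CLP hearts. These values may not be measured ratios, but they were kept in the size and the medians of the list.

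**Figure D5:**
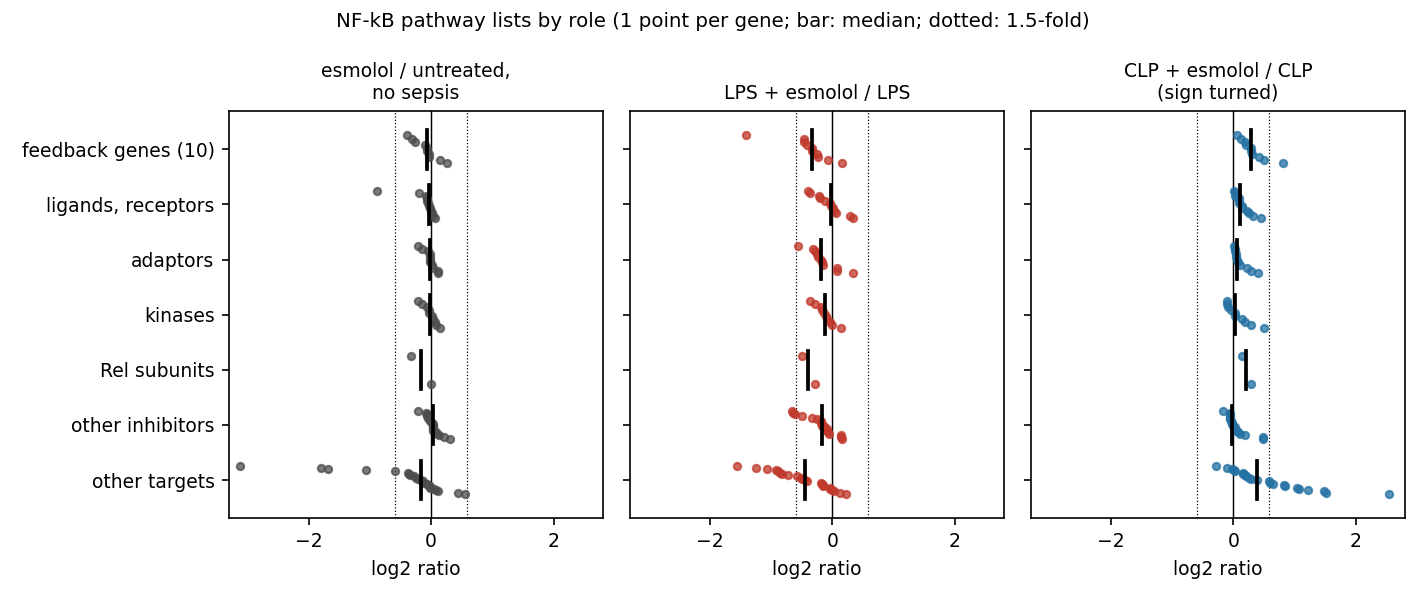
Log2 ratio (x axis) of each measured gene of the NF-kB pathway by role (rows), with panels for non-septic, LPS and CLP hearts from left to right. Each point is 1 gene, the black bar is the list's median and dotted lines mark 1.5-fold; the targets reach farthest from 0 in all 3 panels.

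Across the 3 contrasts, the genes with the pattern most like that of Tnfaip3 were Gbp3, Slc15a3, Ifi47, Gbp5 and Gbp2, by Euclidean distance over 3 values among 15960 genes. Gbp3 was nearest, at a distance of 0.21, with log2 ratios of -0.60 in non-septic, -1.38 in LPS and 0.85 in CLP hearts. Slc15a3 (distance 0.24), Ifi47 (0.27), Gbp5 (0.36) and Gbp2 (0.40) followed. The other NF-kB feedback genes were far from Tnfaip3 in this measure. Nfkbiz was the nearest of them at rank 203 (distance 1.08). Birc3 (rank 459), Nfkbie (551), Relb (554), Nfkbia (610), Tnip1 (941) and Bcl3 (1136) followed. Nfkb2 was at rank 5989, and Tnf was the farthest at rank 6358 (distance 1.63). The genes nearest to the median of the 10 were Mir22hg (0.02), Hsd17b12 (0.04), Pspn (0.04), Samsn1 (0.04) and Nfkbie (0.04), which enters that median itself. With 3 values per gene such closeness is a description.

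Markers of the cell types that a heart sample can hold also had ratios away from 0, and their part in the ratios above was not tested. Of all genes measured, 2.06% were higher and 2.26% lower by 1.5-fold in LPS hearts. The shares were 0.819% and 0.133% in CLP hearts, and 0.219% and 0.241% in non-septic hearts. In LPS hearts, where 9 of the 10 genes were below 0, macrophage markers had a median of 0.54 with 4 of 9 higher by 1.5-fold (range -0.14 to 0.89), platelet and red cell markers a median of -0.61 with 3 of 5 lower (range -1.81 to -0.16), and atrial markers a median of -0.98 with 5 of 7 lower (range -1.23 to 0.21). In CLP hearts, where all 10 were above 0, atrial markers had a median of 2.11 with 6 of 7 higher (range 0.11 to 2.69), macrophage markers a median of 0.22 with 1 of 9 higher (range -0.10 to 0.92), and neutrophil markers a median of -0.30 with 2 of 6 lower (range -0.85 to -0.005). In non-septic hearts, atrial markers had a median of 0.61 with 4 of 7 higher (range 0.03 to 0.80). Endothelial, fibroblast and lymphocyte markers had 0 genes past 1.5-fold in any contrast, with medians between -0.08 and 0.18. Of 8 cardiomyocyte markers, Tnnt2 alone passed, in LPS hearts, where its 0.62 is the median of a probe at 1.28 and a probe on the recurring value described next (-0.04). The table holds ratios and no levels, so the heart label cannot be checked by marker level. A single exact value recurred at 359, 526 and 538 probes in the 3 columns, and among 8 cardiomyocyte markers it was present at 3, 6 and 5. It was at 0 of the 12 probes of the NF-kB feedback genes.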

How the data were processed

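The deposited values, read as log2 ratios, were made by the authors by merging 4 replicates with dye swaps into 1 value per probe and contrast, per the labels. They were taken as ratios of the hearts named first in a title over those named second; base, scanner, background correction, normalization and filters are stated nowhere in the sources used here, and depth or signal over background is unknown. The CLP column was multiplied by -1. Column medians as deposited were 0.0044, 0.0083 and 0.0072. Probes were named from the platform annotation, updated through RefSeq gene IDs (GRCm38.p6, names only), and 32664 carried 1 gene, 45 several and 8465 none. A gene with several probes was given their median. Genes were counted from 1.5-fold on, without a test. Named were all 10 genes with every probe, and, of the other lists, genes past 1.5-fold or at the ends of a list (a few others were added after their values were seen) and the 5 genes nearest to Tnfaip3 and to the set's median. The set and the lists were chosen with earlier results of these data known. Of 84 listed pathway genes 77 were named on the array and 76 measured. The alternatives were the recurring value left out, the mean or the farthest probe per gene, centred columns, a 2-fold threshold, other log bases and the deposited CLP sign. The counting, collapsing and motif search were checked on simulated data. Python 3.11.15, pandas 2.3.3 and numpy 2.4.6 were used.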

Additional observations from a re-analysis of the deposited data

Results flagged for a closer look

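Tnfaip3 stood out because its ratios passed 1.5-fold in both septic models with opposite signs in the titled direction, -1.41 in LPS and 0.80 in CLP hearts. The LPS value minus the CLP value was -2.22 on the log2 scale. The difference was not tested, since each value is 1 merged ratio from 1 probe, and it rests on the CLP direction, which is not settled. With the CLP sign as deposited both values lie below 0 and the difference was -0.61, smaller in size than that of Tnf (0.65).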

How the results depend on the processing

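Leaving out probes on the recurring value could change nothing, as 0 of the 12 probes lay on it. Taking the mean of a gene's probes could change nothing either, as mean and median are equal at 1 or 2 probes. Centring each column, whose medians were 0.0044, 0.0083 and 0.0072 as deposited, changed no count at 1.5-fold. It moved no median and no gene of the 10 by more than the probe spread. With the farthest probe per gene, the count of genes lower in LPS hearts was 3 in place of 1, and 3 of the 30 gene values, all of Nfkbiz, moved by more than the spread. The share of all genes was not counted under that rule. At 2-fold, 0 genes were higher in CLP hearts, where 0.248% of all genes were. The count lower in LPS hearts stayed at 1, where 0.423% of all genes were lower. Read as natural logarithms, 4 genes were lower in LPS hearts and 3 higher in CLP hearts past 1.5-fold, where 6.40% and 1.75% of all genes were. Read as log10, 8 were lower in LPS hearts and 8 higher in CLP hearts, and 1 was higher and 3 lower in non-septic hearts, but then 22.7% of all genes would also be lower in LPS hearts, 7.66% higher in CLP hearts, and 5.93% higher and 7.26% lower in non-septic hearts. With the CLP sign as deposited, the median was -0.29 and Tnfaip3 was at -0.80, so that 0 genes were higher and 1 was lower by 1.5-fold. Replicates could not be left out in turn, because the table holds merged values alone. No paired analysis was possible because no single replicates are given.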

Other observations

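Nfkbia was not alone among feedback genes in lying above 0 in non-septic hearts and below 0 in LPS hearts. Zfp36, an mRNA-destabilizing protein gene among the other inhibitors, had log2 ratios of 0.31 in non-septic, -0.50 in LPS and 0.06 in CLP hearts. The stress-response gene Gadd45b, from the list of targets, had 0.55, -0.73 and 0.26. Zfp36 and Gadd45b were picked out after their values were seen. The survival gene Bcl2l1 was above 0 in non-septic (0.43) and LPS hearts (0.22) and was the lowest of 23 NF-kB targets in CLP hearts (-0.28).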
